A study of Mus musculus with 12 samples.

Results

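The suppressor of cytokine signalling (SOCS) genes Socs1 to Socs7 and their relative Cish were followed in B16F10 cells, a mouse melanoma line. They were taken by gene symbol from a table of 55487 Ensembl genes, and all 8 of the 8 members were found and passed the filter on low counts that left 14591 genes to test. All libraries came from wild-type B16F10 cells grown for 24 h in medium taken from macrophages derived from bone marrow, and the groups differ in how those macrophages had been treated for 24 h beforehand. The macrophages received plain control medium (group M0), 20 ng/ml of a cytokine the labels spell INF-γ, read here as interferon gamma (M1), 20 ng/ml of interleukin-4 (M2), or medium at 75% that B16F10 cells had conditioned (TAM, for tumour-associated macrophages). There were 3 libraries in each of the 4 groups and none from cells without macrophage medium. The sources used here do not say whether the agents were washed away before macrophage medium was taken, and macrophage products and carried-over agent cannot be told apart. Separate cultures for the 3 libraries of each group are not stated either, and the p-values rest on the spread between libraries, which may be technical.

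Cytokines such as interferons and the interleukin-6 family signal through receptors that carry Janus kinases (JAKs), which phosphorylate STAT transcription factors. STATs then induce SOCS genes, whose proteins switch the same receptors off, a negative feedback loop. Each SOCS protein holds an SH2 domain, which docks on phosphorylated tyrosines, and a SOCS box, which recruits Elongins B and C and cullin-5 so that the bound protein is ubiquitinated. SOCS1 and SOCS3 also block the kinase directly through a short inhibitory region, with SOCS1 best known for restraining interferon gamma and SOCS3 for restraining the gp130 receptors of the interleukin-6 family. SOCS2 and CIS, the product of Cish, restrain growth hormone and other STAT5-activating receptors. SOCS4 to SOCS7 are less studied and have been linked mainly to receptor tyrosine kinases, SOCS4 and SOCS5 to the EGF receptor, SOCS6 to KIT and insulin signalling and SOCS7 to insulin receptor substrates.

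Sequences before and at the start sites of Socs1, Socs3 and Cish are shown because they hold motifs that STAT or IRF proteins are known to bind. Promoter windows from RefSeq (GRCm38.p6), running from 250 bases before to 50 after a start site, were found for 4 of the 8 members, namely Socs1, Socs3, Socs4 and Cish. Capitals mark matches to TTCNNNGAA, the palindrome of STAT dimers, or to the core of an interferon-stimulated response element, which is GAAA, any 2 bases and GAAA again. A STAT palindrome with a gap of 4 bases between TTC and GAA was searched as well, and all 3 motifs were searched on both strands. The Socs1 sequence holds the 250 bases before the start (chr16:10785537-10785786, minus strand) and the others are pieces of 30 bases, from chr11:117969499-117969528 on the minus strand for Socs3 and chr9:107296651-107296680 on the plus strand for Cish.
Socs1: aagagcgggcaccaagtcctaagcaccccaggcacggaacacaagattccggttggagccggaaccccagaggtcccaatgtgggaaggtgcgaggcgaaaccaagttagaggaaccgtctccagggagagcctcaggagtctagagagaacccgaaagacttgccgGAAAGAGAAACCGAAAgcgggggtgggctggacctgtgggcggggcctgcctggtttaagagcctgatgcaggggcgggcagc
Socs3: aaccagccTTCTTAGAAgggagggggggga
Cish: gcccagttTTCCTGGAAagTTCTTGGAAat
In Socs1 GAAAGAGAAA at positions −83 to −74 overlaps GAAACCGAAA at −77 to −68, both matches to the response element core, counting the first transcribed base as 1. Socs3 held TTCTTAGAA at −154 to −146. Cish held TTCCTGGAA at 1 to 9 and TTCTTGGAA at 12 to 20. The Socs4 window held none of the 3 motifs, and none of the 4 windows held the palindrome with the wider gap. Of all 32851 RefSeq promoter windows of the same length, 8.30% hold TTCNNNGAA, 6.95% the palindrome with the wider gap and 3.44% the response element core, so a match describes the sequence and is not evidence of binding.

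Libraries held 15916756 to 20863973 counts. Levels are counts scaled to 1000000 per library (CPM). All 11 melanocyte markers passed the filter, with sums of 20946 to 21186 CPM in M0, 19470 to 19848 in M2, 14029 to 14536 in M1 and 14699 to 15540 in TAM. Of these 11, 8 were called lower in M1 and 9 in TAM against M0. Of 22 macrophage markers 8 had no count in any library, among them Ptprc, Adgre1, Itgam, Tyrobp and the C1q genes, and the sum of the list was 5.37 to 8.13 CPM in M0, 6.02 to 6.66 in M2, 3.94 to 5.03 in TAM and 21.8 to 23.2 in M1. Mpeg1 alone made up 14.6 to 16.6 CPM in M1, and without it the other 21 markers summed to 6.66 to 7.23 CPM there. Lymphocyte and neutrophil markers reached at most 0.111 CPM, with 5 of 7 at 0 throughout, whereas 3 of 7 fibroblast and endothelial markers were at 0 and the list summed to 19.5 to 25.1 CPM in M0, 15.98 to 19.9 in M1, 25.0 to 28.6 in M2 and 35.4 to 37.4 in TAM. M0 replicate 1 stood apart. Across genes, its log2(CPM + 1) values had r = 0.950 and 0.952 with the remaining M0 libraries, where the pairs of libraries within groups otherwise had r = 0.997. Ribosomal protein genes made up 8.17% of the counts in M0 replicate 1 and 3.65% to 4.26% in the rest. The mean exon length weighted by counts came to 4545 bp there and 5817 to 6091 bp in the rest. Tests of the members are therefore given with all 12 libraries and without this one, when 14968 genes were tested.

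In all 8 members M0 replicate 1 was farther from the nearest of the other M0 libraries than those libraries were from each other. Socs4 to Socs7 were low in it. Socs4, Socs5, Socs6 and Socs7, with 6877, 6416, 11349 and 7265 bp of merged exons, stood at 0.338, 0.640, 0.465 and 0.502 times the mean of the other M0 libraries. The short members Socs1 and Socs3, with 2908 and 2891 bp, stood at 3.08 and 1.48 times that mean. Cish, at 6419 bp, and Socs2, at 9531 bp, stood at 1.32 and 0.773 times it. The part of this library's composition in each comparison was measured only by leaving it out.

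Levels of different members can be compared per kilobase (kb) of exon. In M0 Socs7, Socs4, Socs5 and Socs3 were the most abundant transcripts, at 5.91 ± 2.04, 4.77 ± 2.40, 4.77 ± 1.15 and 4.16 ± 1.02 CPM per kb (SD, n = 3), whose spreads overlap, followed by Socs6 at 2.51 ± 0.954. Socs2, Socs1 and Cish were the rarest, at 0.371 ± 0.0588, 0.337 ± 0.244 and 0.226 ± 0.0388. The family as a whole summed to 23.0 ± 5.27 CPM per kb in M0, 27.1 ± 0.589 in M2, 38.3 ± 0.415 in TAM and 58.8 ± 3.19 in M1. Its makeup changed with the medium. Socs1 and Socs3 held 38.4% ± 2.30 and 26.6% ± 1.12 of the family's length-adjusted counts in M1, against 1.71% ± 1.65 and 19.6% ± 10.2 in M0. In TAM Socs4, Socs7 and Socs5 held 29.1% ± 0.532, 27.7% ± 0.513 and 22.0% ± 0.673.

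**Figure D1:**
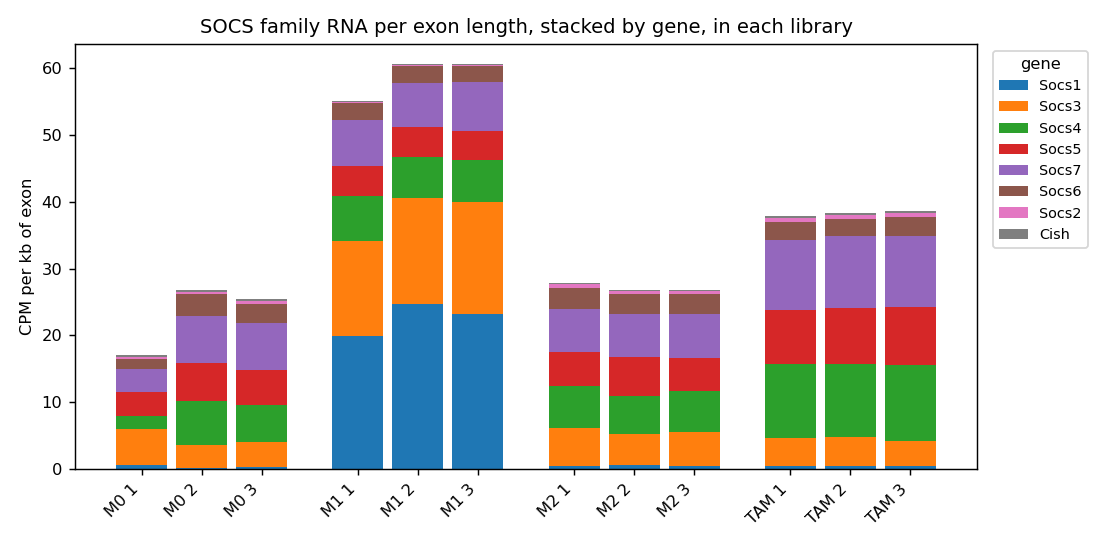
Each bar is 1 library and shows CPM per kb of merged exon, stacked by gene, with 3 libraries in each of M0, M1, M2 and TAM. Bars reach 55.1 to 60.6 in M1, where Socs1 and Socs3 form the lower part, and 37.8 to 38.7 in TAM, where Socs4, Socs5 and Socs7 take most of the height.

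In medium of interferon-treated macrophages the JAK-blocking members Socs1 and Socs3 rose and Socs2 fell. In M1 versus M0, edgeR's quasi-likelihood test at a Benjamini-Hochberg adjusted p under 0.05 called 2 members higher and 1 lower, where 25.7% of all tested genes were called, 12.2% higher and 13.5% lower. In bulk RNA, fewer cells of a type and less RNA per cell cannot be told apart, and this holds for every lower level given here. All 3 calls held whichever of the 12 libraries was left out. Mpeg1 was counted in M1 while 8 defining macrophage markers had no count there, melanocyte markers were lower, and the part of either in these results was not tested.

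Socs1, at chromosome 16, 10782240 to 10785536, minus strand (GRCm38), was nearly silent outside M1. It stood at 1.78, 0.438 and 0.719 CPM in M0 replicates 1 to 3, from 32, 7 and 15 counts, and at 57.9, 71.9 and 67.3 CPM in M1, from 1112, 1237 and 1358 counts. The groups were far apart, and the lowest M1 library was above every library of the other groups. The rise was 6.05 ± 0.32 on the log2 scale (SE, edgeR adjusted p = 1.28e-07), a fold of 66.3. The fit without M0 replicate 1 gave 6.81 ± 0.17, a fold of 111.9 (edgeR adjusted p = 2.15e-37).

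Socs3, on chromosome 11 (117966079 to 117970047, minus strand), rose less and from a higher base. It measured 15.4, 9.76 and 11.0 CPM in M0 and 41.1, 45.7 and 48.8 in M1, with no overlap. Its rise was 1.91 ± 0.16 on the log2 scale, a fold of 3.75 (edgeR adjusted p = 9.14e-06), and 2.15 ± 0.10 without M0 replicate 1 (edgeR adjusted p = 9.88e-25). Per kb of exon Socs1 went from 0.337 to 22.6 ± 2.44 CPM and Socs3 from 4.16 to 15.6 ± 1.35, so the order of the levels of these genes was the other way round in M1.

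Socs2, the restrainer of growth hormone signalling (chromosome 10, 95385362 to 95417180, minus strand), moved the opposite way. It measured 2.95, 3.57 and 4.07 CPM in M0 and 0.990, 0.697 and 0.546 in M1, where 19, 12 and 11 reads were counted. Every M1 library was below every other library in the series. The change was −2.24 ± 0.22 on the log2 scale (edgeR adjusted p = 2.26e-05), to a level 4.73-fold lower, and −2.32 ± 0.26 without M0 replicate 1 (edgeR adjusted p = 5.66e-11).

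The other 5 members did not pass in M1 versus M0 with all 12 libraries. Socs4, Socs7, Socs5, Socs6 and Cish had log2 changes of 0.42, 0.24, −0.11, −0.01 and −0.43, with 95% intervals as wide as −0.25 to 1.09 for Socs4. The intervals of Socs4, Socs5, Socs6 and Socs7 narrowed without M0 replicate 1. That fit had 2 members higher and 3 lower, against 24.3% and 22.9% of the tested genes (47.1% in either direction). The 2 added were Socs5 and Socs6, both lower, with changes of −0.25 ± 0.08 (edgeR adjusted p = 0.00608 and 0.00547). In that fit Socs4 changed by 0.11, with an interval from −0.03 to 0.24, and Socs7 by 0.02, with an interval from −0.10 to 0.14, so changes of these genes beyond about 0.25 lay outside their intervals. Cish, at 15 to 24 counts per M1 library, had a wider interval there, from −0.93 to 0.45, than with all 12 libraries, from −0.91 to 0.06. Cish also overlaps Gm17041 and Gm17040 on the other strand, which held 0 and 1 counts in all libraries together, and the strand setting of the counting is not given.

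**Figure D2:**
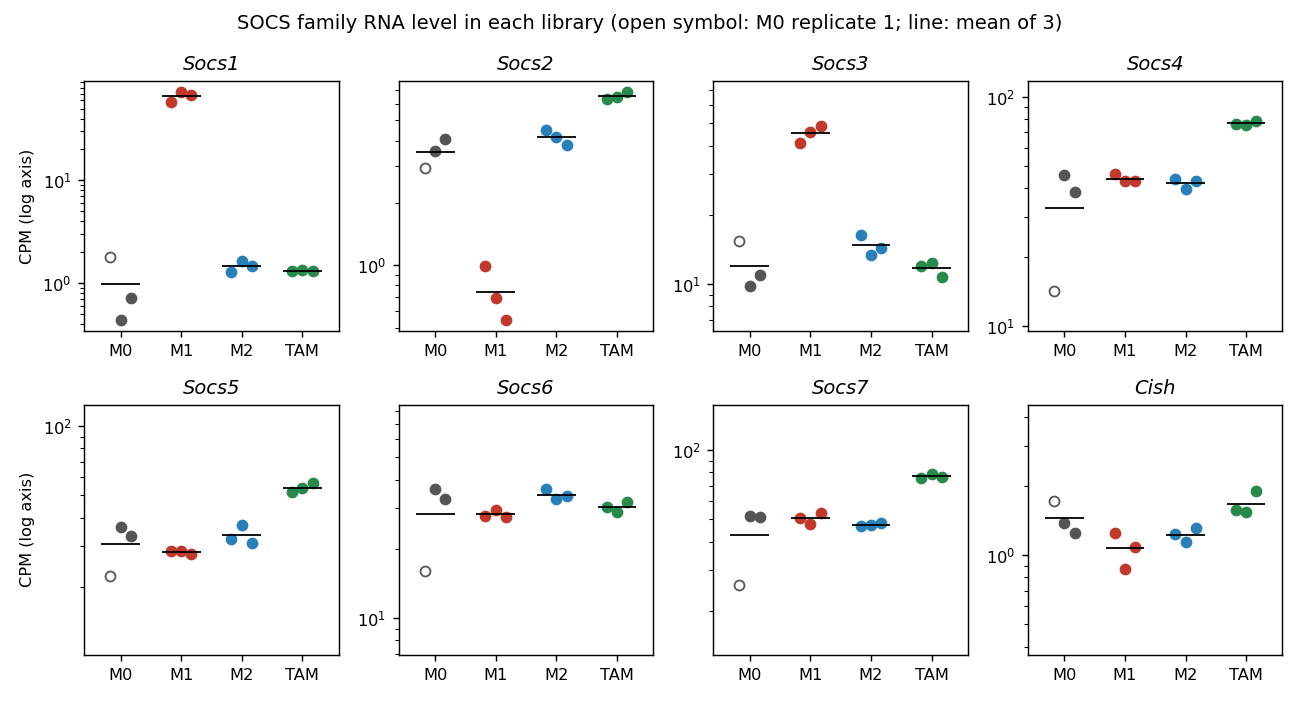
Points give CPM of each library on a log axis, by group, with 1 panel per gene. The line is the mean of 3 libraries and the open symbol is M0 replicate 1. Socs1 and Socs3 are high in M1, Socs2 is low in M1 and high in TAM, and Socs4, Socs5 and Socs7 are high in TAM, with all TAM libraries of these genes above all others.

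In medium of interleukin-4-treated macrophages no member passed the threshold. In M2 versus M0 edgeR called 0 of the 8 members, where 0% of the 14591 tested genes were called, and DESeq2, with 7 genes called, and limma-voom, with 0, also called 0 members. No member had an unadjusted p under 0.05, as 980 of all genes did. Socs1 measured 1.28, 1.64 and 1.48 CPM in M2, and Socs3 16.4, 13.4 and 14.4. For both genes M2 overlapped M0 only through M0 replicate 1. For Socs1 the log2 change was 0.57, with a 95% interval from −0.23 to 1.37, and for Socs3 0.29, with an interval from −0.07 to 0.65.

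With M0 replicate 1 left out, 1 member was called higher in M2, where 0.341% of genes were called and 0.207% were higher. This was Socs3, by 0.50 ± 0.11 on the log2 scale (edgeR adjusted p = 0.0182), a fold of 1.42. Socs1 had a larger and less certain change of 1.30 ± 0.32 (edgeR adjusted p = 0.0589), with all M2 libraries above the remaining M0 libraries. The other 6 members had changes between −0.11 and 0.13, neither direction passing. The intervals were −0.13 to 0.15 for Socs4, −0.19 to 0.11 for Socs5, −0.15 to 0.15 for Socs6 and −0.23 to 0.01 for Socs7, and they were wider for Socs2 (−0.27 to 0.52) and Cish (−0.76 to 0.59), which had few counts. CIS is the classical STAT5-induced member of the family, and Cish measured 1.23, 1.14 and 1.31 CPM in M2 and 1.73, 1.38 and 1.25 in M0.

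In medium of macrophages exposed to tumour medium Socs2, Socs4, Socs5 and Socs7 rose. In TAM versus M0 4 members were called higher and 0 lower, where 50.5% of all tested genes were called, 23.3% higher and 27.2% lower. A count of 4 in 8 is near that background. The 4 calls held whichever of the 12 libraries was left out. With only the 6 TAM and M0 libraries in the fit 2 members passed, Socs2 and Socs5. Socs4 and Socs7 did not pass in that fit (edgeR adjusted p = 0.0635 and 0.0602), whose share of all genes called is not given here. The fibroblast and endothelial list also summed higher in TAM and the melanocyte and macrophage lists lower, and their part in these results was not tested.

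Socs4, on chromosome 14 (47276931 to 47296102, plus strand), measured 76.2, 75.0 and 78.3 CPM in TAM and 14.2, 45.8 and 38.4 in M0. The TAM libraries were close together and all above M0. The rise was 1.22 ± 0.31 on the log2 scale, a fold of 2.33 (edgeR adjusted p = 0.00669), and 0.86 ± 0.07 without M0 replicate 1, a fold of 1.82 (edgeR adjusted p = 1.14e-16). Socs7, on chromosome 11 (97362551 to 97398542, plus strand), measured 76.0, 78.6 and 76.4 CPM in TAM and 25.8, 51.8 and 51.1 in M0. It rose by 0.84 ± 0.21 (edgeR adjusted p = 0.00585), or 0.58 ± 0.06 without M0 replicate 1, again without overlap between the groups.

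Socs5, on chromosome 17 (87107679 to 87137839, plus strand), measured 51.9, 53.8 and 56.3 CPM in TAM and 22.2, 36.2 and 33.3 in M0. It rose by 0.82 ± 0.16 (edgeR adjusted p = 0.00124), or 0.63 ± 0.07 without M0 replicate 1. Socs2 measured 6.38, 6.48 and 6.83 CPM in TAM against 2.95 to 4.07 in M0. It rose by 0.89 ± 0.18, a fold of 1.85 (edgeR adjusted p = 0.00177), and by 0.77 ± 0.19 without M0 replicate 1. With all 12 libraries Socs2 was thus the member called in opposite directions against M0, lower in M1 and higher in TAM. These 2 comparisons share the M0 libraries. Without M0 replicate 1 Socs5 was also called in opposite directions, lower in M1 and higher in TAM (edgeR adjusted p = 0.00608 and 6.88e-11).

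The JAK-blocking members did not pass in TAM versus M0 with all 12 libraries. Socs3 measured 10.7 to 12.4 CPM in TAM, within the range of M0, with a change of −0.04 and a 95% interval from −0.40 to 0.32. Leaving out M0 replicate 1 gave a change of 0.16, with an interval from −0.07 to 0.39. Socs1 measured 1.31, 1.35 and 1.31 CPM in TAM, from 25, 27 and 26 counts. It lay inside the range of M0 with replicate 1 and above it without. Its change was 0.42 ± 0.37 with all libraries and 1.13 ± 0.33 without M0 replicate 1 (edgeR adjusted p = 0.359 and 0.00231). Without that library 5 members were higher and 1 lower, against 33% and 33.7% of tested genes (66.7% in either direction). The 1 lower was Socs6, which changed by −0.19 ± 0.08 (edgeR adjusted p = 0.0292), having measured 0.10 ± 0.23 with all libraries. Cish stood at 1.57, 1.54 and 1.91 CPM and did not pass in either fit.

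**Figure D3:**
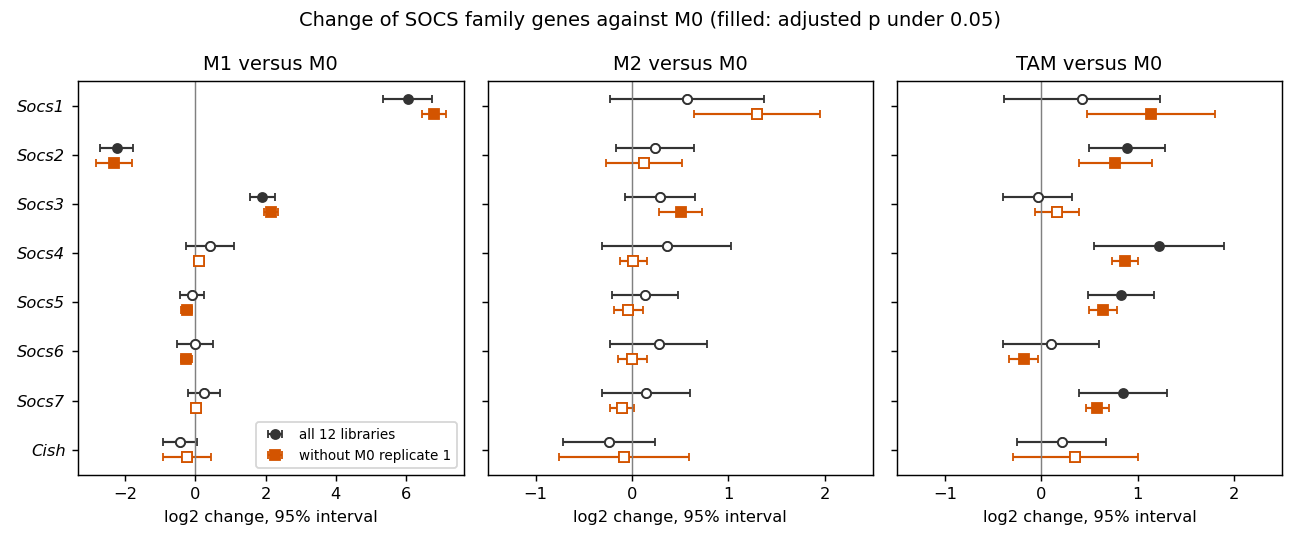
Points give the log2 change of each gene against M0 with its 95% interval, from the fit of all 12 libraries (circles) and without M0 replicate 1 (squares), and filled points have an adjusted p under 0.05. The horizontal scale of the M1 panel is wider than the other panels. Without M0 replicate 1 intervals shrink, except that those of Cish in every panel and of Socs2 in the M1 panel widen. Socs1 and Socs3 stand above 0 in M1 while Socs2, Socs4, Socs5 and Socs7 stand above 0 in TAM.

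The media of treated macrophages were also compared with each other. In TAM versus M1 6 members were called, 4 higher and 2 lower, where 43% of all tested genes were, 19.8% higher and 23.3% lower. Socs1 was 49.6-fold lower in TAM, a change of −5.63 ± 0.30 (edgeR adjusted p = 1.06e-07), and Socs3 3.86-fold lower, a change of −1.95 ± 0.16 (edgeR adjusted p = 3.56e-06). Socs2 was 8.76-fold higher in TAM, by 3.13 ± 0.21 (edgeR adjusted p = 5.66e-07), the largest difference of Socs2 between any 2 groups. Socs5 was higher by 0.93 ± 0.16 (edgeR adjusted p = 0.000627). These 4 calls held whichever library was left out. Socs7, higher by 0.60 ± 0.21 (edgeR adjusted p = 0.035), lost its call when any library of M1, M2 or TAM was left out (edgeR adjusted p = 0.0552 to 0.115). Cish, higher by 0.64 ± 0.22 (edgeR adjusted p = 0.0339), lost it without M0 replicate 1, M1 replicate 2 or 3, M2 replicate 1 or 3 or any TAM replicate (edgeR adjusted p = 0.0513 to 0.152), and under DESeq2 (adjusted p = 0.0748). Socs4 narrowly missed with all libraries (0.80 ± 0.30, edgeR adjusted p = 0.0526) and passed without M0 replicate 1 or 2 (edgeR adjusted p = 6.8e-17 and 0.0331). The count was again 6 without M0 replicate 1, with Socs4 in place of Cish and 4 higher and 2 lower, against 70.1% of genes, 32.4% higher and 37.7% lower. The number called went from 4 to 7 as each library in turn was left out, with 4 without M1 replicate 2 or 3, M2 replicate 1 or 3 or any TAM replicate.

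In TAM versus M2 4 members were higher and 0 lower, where 43.2% of tested genes were called and 20.7% were higher and 22.6% lower. They were Socs4, Socs7, Socs5 and Socs2, by 0.86 ± 0.30, 0.70 ± 0.21, 0.69 ± 0.15 and 0.65 ± 0.18 (edgeR adjusted p = 0.039, 0.0178, 0.00407 and 0.0111). In each the libraries of the groups did not overlap. The call of Socs5 held whichever library was left out. Without M2 replicate 3 it was the only call of the 8, and 2 were called without M2 replicate 1 or 2 or any TAM replicate and 3 without any M1 replicate. Socs4 lost its call without any library of M1, M2 or TAM (edgeR adjusted p = 0.0573 to 0.111), Socs7 without any library of M2 or TAM (0.0507 to 0.0581), and Socs2 without M2 replicate 3 (0.0515). Leaving out M0 replicate 1, 4 were higher and 2 lower, against 34.2% and 35.3% of genes (69.5% in either direction), with the changes of the 4 at 0.85, 0.69, 0.67 and 0.64. The 2 lower were Socs3, which changed by −0.34 ± 0.10 (edgeR adjusted p = 0.00152), and Socs6, which changed by −0.19 ± 0.07 (edgeR adjusted p = 0.0127).

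M1 versus M2 called the same 3 genes as M1 versus M0, where 17.2% of tested genes were called, 9.72% higher and 7.5% lower. Socs1 was higher by 5.48 ± 0.30, Socs3 higher by 1.62 ± 0.16 and Socs2 changed by −2.48 ± 0.22 (edgeR adjusted p = 1.92e-07, 3.31e-05 and 9.67e-06). There were 3 higher and 3 lower without M0 replicate 1, against 24.8% and 23.5% of genes (48.3% in either direction). The added members were Socs7, higher by 0.13 ± 0.05 (edgeR adjusted p = 0.0468), and Socs5 and Socs6, lower with changes of −0.21 ± 0.07 and −0.25 ± 0.07 (edgeR adjusted p = 0.00975 and 0.00167). M0 replicate 1 is in neither group of the last 3 comparisons and enters them only through the shared estimate of the spread, the scaling and the filter, with a common dispersion of 0.0324 with it and 0.00166 without it.

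The order of the groups therefore differed from member to member. For Socs1 it was M1, then M2, TAM and M0, with the last 3 not separated by the test over all 12 libraries. Without M0 replicate 1 TAM and M0 were separated for Socs1. For Socs3 the order was M1, M2, M0 and TAM, with the last 3 again not separated with all 12 libraries. Without M0 replicate 1 Socs3 had a higher mean in TAM, at 11.7 CPM, than in M0, at 10.4 CPM. These groups were not separated, and M2 was separated from both. For Socs2 the order was TAM, M2, M0 and M1. M2 at 4.17 ± 0.344 CPM and M0 at 3.53 ± 0.560 were not separated, but TAM and M1 were each separated from all others. Socs4, Socs5 and Socs7 were highest in TAM, although Socs4 was not separated between TAM and M1 with all 12 libraries, and in none of them was any pair among M0, M1 and M2 separated with all 12 libraries. Socs6, on chromosome 18, stood between 28.3 ± 1.14 and 34.4 ± 1.80 CPM in the 4 groups with no pair separated with all 12 libraries and 4 of 6 pairs separated without M0 replicate 1, and Cish between 1.07 ± 0.190 and 1.67 ± 0.203 CPM with M1 and TAM the only pair separated with all 12 libraries and none without M0 replicate 1.

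Across the 12 libraries the members followed 2 main patterns. Socs1 and Socs3 correlated at r = 0.983 and each ran against Socs2, at r = −0.918 and −0.931, in log2(CPM + 1). Socs4 and Socs7 correlated at r = 0.983, and Socs5 with them at 0.865 and 0.891. These values describe 12 libraries in 4 groups, which share their medium, and M0 replicate 1 is low in Socs4, Socs5 and Socs7 together. Among 10958 other protein-coding genes, those most like Socs1 were Parp10, Irgm2 and Mlkl (r = 0.997, 0.997 and 0.996), an ADP-ribosyltransferase, an immunity-related GTPase and the executor of necroptosis. Those most like Socs3 were Il18, Tmem229b and Rnf135 (r = 0.989, 0.988 and 0.986), and those most like Socs2 were Tef, Sirpa and Ttc7b (r = 0.985, 0.979 and 0.9754). Sirpa, which encodes the receptor of the CD47 signal, went from 293.2 CPM in M0 to 129.2 in M1 and 417.3 in TAM. Socs4 was most like Foxn3, Ercc6 and Dusp11 (r = 0.995, 0.994 and 0.993), Socs7 most like Rnf44, Yes1 and Syne1 (0.992, 0.992 and 0.991) and Socs5 most like Chd3, Pax3 and Trp53inp1 (0.992, 0.989 and 0.988). Without M0 replicate 1 the values of these most similar genes all stayed at or above 0.980. The correlations between members were taken over the 12 libraries only.

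The rest of the JAK-STAT pathway was read from lists of its parts, whose counts stand against 25.7% of all tested genes called in M1 versus M0 and 50.5% in TAM versus M0, or 47.1% and 66.7% without M0 replicate 1. Of 21 ligand genes 7 were abundant enough to test, and 3 were higher and 0 lower in M1 and 3 higher and 1 lower in TAM, or 4 and 0, and 5 and 1, without M0 replicate 1. Values of single genes are from all 12 libraries, and every pathway gene given as changed was also called in the same direction without M0 replicate 1. That check is not given for the M1 changes of Il4ra and Cntfr. Lif, a gp130 ligand, rose from 0.252 ± 0.133 CPM in M0 to 3.67 ± 1.12 in M1 and 20.4 ± 1.38 in TAM, by 3.82 ± 0.37 and 6.28 ± 0.35 on the log2 scale (edgeR adjusted p = 2.44e-05 and 1.96e-07). In TAM the gp130 ligands Clcf1 and Il11 rose as well, by 4.17 ± 0.24 and 4.16 ± 0.42 (edgeR adjusted p = 2.38e-07 and 1.49e-05), with Il11 at 4.80 ± 0.44 without M0 replicate 1. The median change of the 7 ligands was 0.98 in M1 and 1.06 in TAM, against −0.02 for all tested genes in both. In TAM, where these ligands were highest, all libraries of Socs3, the feedback gene of gp130, were in the range of M0 only with M0 replicate 1 included. The part of these ligands in the level of Socs3 was not tested.

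Of 19 tested cytokine receptors 9 were higher and 2 lower in M1, and 8 higher and 4 lower in TAM, with medians of 0.57 and 0.25, where the share called in TAM, 12 of 19, was not far from that of all genes. In M1 the interleukin-12 receptor gene Il12rb1 rose by 6.58 ± 0.33 and Il15ra by 3.601 ± 0.32 (edgeR adjusted p = 9.2e-08 and 1.23e-05), and Il12rb1 by 7.26 ± 0.16 without M0 replicate 1. In TAM the interleukin-4 receptor gene Il4ra rose by 1.34 ± 0.17 (edgeR adjusted p = 5.77e-05), while Epor and Cntfr fell by 1.82 and 1.40. Il4ra and Cntfr were not particular to TAM. In M1 Il4ra also rose, by 0.99 ± 0.17, and Cntfr changed by −1.495 (edgeR adjusted p = 0.0014 and 1.39e-05). Epor did not pass in M1 (edgeR adjusted p = 0.104). In the fit without M0 replicate 1 there were 20 receptors tested, and 13 were higher and 3 lower in M1 and 11 higher and 5 lower in TAM.

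All 4 Janus kinase genes were higher in M1, with a median of 0.93, while in TAM 1 was higher and 2 lower. Of all tested genes 25.7% were called in M1 and 50.5% in TAM. Leaving out M0 replicate 1, the Janus kinase genes were 4 higher in M1, and 1 higher and 3 lower in TAM. Jak3 rose by 1.27 ± 0.12 and Jak2 by 0.997 ± 0.25 in M1 (edgeR adjusted p = 1.98e-05 and 0.0156). In TAM Jak1 rose by 0.59 ± 0.21 and Tyk2 changed by −0.55 ± 0.09 (edgeR adjusted p = 0.0389 and 0.000371), and the rise of Jak1 was 0.31 ± 0.04 without M0 replicate 1. Of 6 tested STAT genes 1 was higher and 2 lower in TAM, where 50.5% of all tested genes were called. Without M0 replicate 1 these genes were 1 higher and 3 lower, against 66.7%. Stat5a, which acts upstream of Cish and Socs2, changed by −0.65 ± 0.14 in TAM (edgeR adjusted p = 0.00322), where Socs2 was at its highest. The part of Stat5a in the level of Socs2 was not tested.

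Among 13 other inhibitors of the pathway 3 were higher and 1 lower in M1, and 4 higher and 2 lower in TAM, shares near those of all genes, and without M0 replicate 1 they were 4 and 4, and 3 and 3. Usp18, which restrains the type I interferon receptor, rose with Socs1 in M1, by 5.83 ± 0.24 (edgeR adjusted p = 1.59e-08), whereas the phosphatase gene Ptpn2 rose in both, by 0.36 ± 0.08 in M1 and 0.62 ± 0.08 in TAM (edgeR adjusted p = 0.00683 and 7.06e-05). Ptpn6, encoding the phosphatase SHP-1, went from 11.95 ± 3.33 CPM in M0 to 2.15 ± 0.192 in TAM, a change of −2.47 ± 0.20 (edgeR adjusted p = 2.88e-06). In M1 6 of 12 tested STAT3 targets were higher and 2 lower, and of 6 STAT5 targets 1 was higher and 1 lower. In TAM 8 STAT3 targets were higher and 2 lower, and 5 STAT5 targets were higher and 1 lower, where 50.5% of all genes were called. The fit without M0 replicate 1 had 8 STAT3 targets higher and 2 lower in M1 and 10 higher and 2 lower in TAM, and the same counts of STAT5 targets. Bcl6, a gene for a repressor and on the list of STAT5 targets, rose in M1 and TAM, by 2.64 ± 0.14 and 2.32 ± 0.14 (edgeR adjusted p = 1.1e-07 and 2.89e-07). Bcl6 was the 1 STAT5 target called higher in M1. The lists do not record whether a STAT raises or lowers a gene, so their counts do not measure STAT activity. Id1 rose in TAM by 3.26 ± 0.28 (edgeR adjusted p = 4.76e-06). In M2 versus M0 no gene of the lists described here was called with all 12 libraries, where 0% of all tested genes were. Without M0 replicate 1, 1 receptor, 1 STAT gene, 1 STAT3 target and 1 STAT5 target were higher and 0 lower, where 0.341% of tested genes were called.

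**Figure D4:**
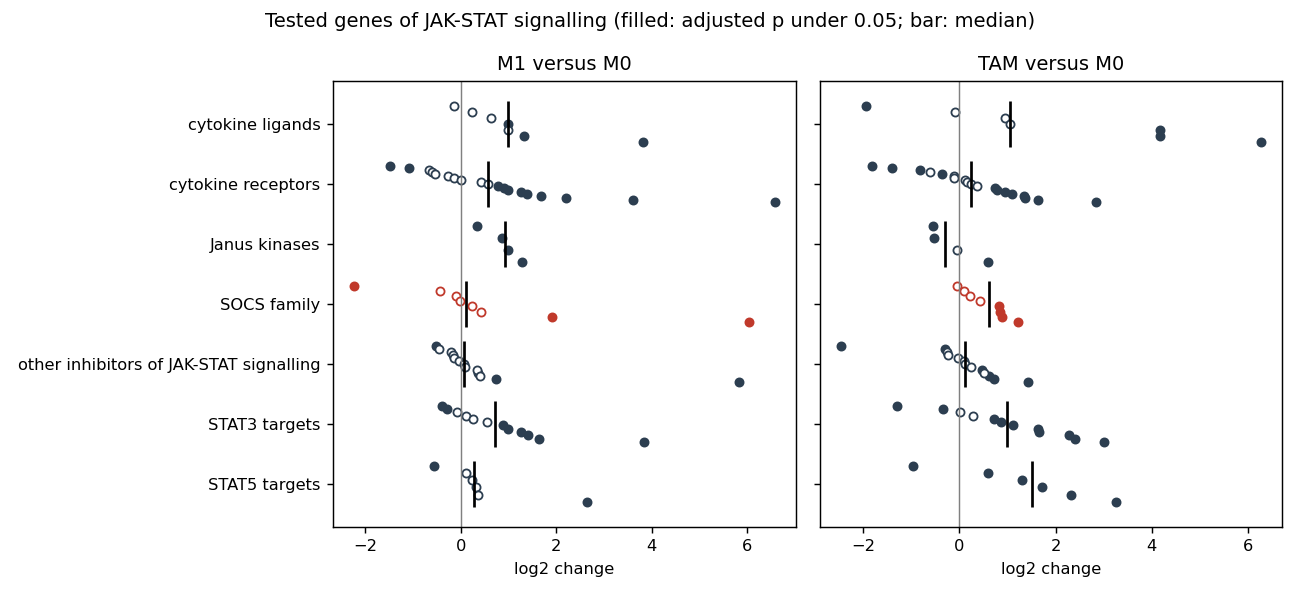
Each point is the log2 change of 1 tested gene against M0 in the fit of all 12 libraries, grouped by list, filled where the adjusted p was under 0.05, and the bar is the median of the points drawn. The SOCS family is spread from −2.24 to 6.05 in M1 and from −0.04 to 1.22 in TAM.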

How the data were processed

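The authors deposited counts per Ensembl gene for 12 libraries, read as raw since they are whole and their totals differ. The submitters' processing notes list HISAT2 2.0 and the build mm10, without their roles, and total RNA was extracted with Trizol, per the labels' protocols. No counter, annotation or strand setting is stated in these sources. Symbols were found for 55141 identifiers, and exons were merged from GENCODE M21 (GRCm38, also called mm10). The fit used edgeR 4.0.16 under R 4.3.3 with filterByExpr by group, TMM scaling and 1 robust quasi-likelihood fit of all 12 libraries. All 6 comparisons between groups were tested, each adjusted by Benjamini-Hochberg over all genes tested. The SE is the absolute log2 change divided by the square root of F, and 95% intervals use the fit's degrees of freedom. CPM carry TMM scaling except in marker sums. DESeq2 1.42.0 and limma-voom (limma 3.58.1) were run beside it, with other scaling, filters and samples. The fit was tested on simulated data, in which all genes shared a single dispersion and no library stood apart. The behaviour of the fit with a library like M0 replicate 1 was not tested there. The members and lists were chosen with earlier results of these data known. Every member was named, up to 4 genes per list with the smallest p in M1 or TAM versus M0, and the 3 genes most correlated with each member called against M0. Some results on other pathway genes are not reported here.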

Additional observations from a re-analysis of the deposited data

How the results depend on the processing

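The alternatives were RLE and upper-quartile factors, no filter on low counts, DESeq2, limma-voom, only the 6 libraries compared, a replicate block, and leaving out each library in turn. Apart from leaving out libraries, 315 changes of single members kept their direction and their side of the threshold, 7 passed where they had not, 8 no longer passed and 6 changed sign. With only the 6 libraries compared, 2 members were called in TAM versus M0 and 5 in M1 versus M2. All 6 changes of sign were Socs6 in M1 versus M0, where the change of −0.00918 became 0.0150 with RLE factors and with DESeq2, 0.0361 without the filter, 0.0757 with limma-voom, 0.0307 with only the 6 libraries and 0.0203 with the replicate block. Leaving out each library gave 3 to 5 members called in M1 versus M0, 0 to 1 in M2 versus M0, 4 to 6 in TAM versus M0, 4 to 7 in TAM versus M1, 1 to 6 in TAM versus M2 and 3 to 6 in M1 versus M2. It moved the change in M1 versus M0 from −0.249 to 0.0360 for Socs5 and from −0.252 to 0.205 for Socs6. In M2 versus M0 the range was −0.0398 to 0.270 for Socs5 and −0.108 to 0.302 for Socs7, and in TAM versus M0 −0.176 to 0.163 for Socs3 and −0.185 to 0.302 for Socs6. The cause of these shifts was not tested. Counts of members in this section stand without the share of all genes called in each fit. So do those above from leaving out libraries other than M0 replicate 1. That share also moved, for TAM versus M2 from 43.2% with all 12 libraries to 69.5% without M0 replicate 1.

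Replicate numbers are shared between groups but did not pair the libraries. Same-numbered deviations correlated at −0.244 to 0.286 in 18 pairs, 2 of them over 0.1, and 5 of 12 libraries correlated best with their own number. With the replicate block 3, 0, 4, 6, 3 and 3 members were called in the 6 comparisons, Socs4 in TAM versus M2 being the call lost (edgeR adjusted p = 0.0549). Depth limits Socs1 outside M1, Socs2 in M1 and Cish, with 7 to 38 counts a library.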

Other observations

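Genes that share the SOCS box or work with it moved in both directions. Of 15 tested genes of other SOCS box families 3 were higher and 3 lower in M1 versus M0, and 4 higher and 7 lower in TAM versus M0, where 25.7% and 50.5% of all tested genes were called. Asb13 and Spsb1 rose in M1, by 1.94 ± 0.14 and 1.38 ± 0.11 on the log2 scale (edgeR adjusted p = 1.65e-06 and 5.48e-06), and in TAM they changed by −0.998 ± 0.15 and −1.01 ± 0.12 (edgeR adjusted p = 0.000209 and 4.24e-05). Spsb4 and Wsb2 were lower in both, with changes of −1.77 and −1.09 in M1 and −1.79 and −0.70 in TAM. Of 9 Elongin-cullin partners 1 was higher and 3 lower in M1 and 3 higher and 3 lower in TAM, where Cul5, the scaffold that SOCS boxes recruit, rose by 0.72 ± 0.14 (edgeR adjusted p = 0.00167). Without M0 replicate 1 the SOCS box counts were 5 higher and 3 lower in M1 and 6 higher and 7 lower in TAM. The partners were 1 and 4, and 5 and 3, where 47.1% and 66.7% of all tested genes were called.

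Of 8 tested genes for proteins that SOCS proteins are known to bind, 0 were higher and 1 lower in M1, and 2 higher and 1 lower in TAM. Of all tested genes 25.7% were called in M1 and 50.5% in TAM. Irs2, an insulin receptor substrate, rose from 9.20 ± 3.63 CPM in M0 to 53.3 ± 4.45 in TAM, by 2.53 ± 0.25 (edgeR adjusted p = 1.15e-05), and Insr rose by 1.44 ± 0.35 (edgeR adjusted p = 0.006). Kit was rare throughout and lower in both, at 1.15 ± 0.413 CPM in M0, 0.259 ± 0.125 in M1 and 0.238 ± 0.0828 in TAM. Without M0 replicate 1 the counts were 0 higher and 2 lower in M1 and 3 higher and 2 lower in TAM, against 47.1% and 66.7% of all tested genes.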
